A study of Homo sapiens with 6 samples.

Results

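The lysyl oxidases and collagen hydroxylases are the enzymes that modify collagen inside the cell and crosslink it outside. They were followed here as 10 genes chosen by symbol: *LOX*, *LOXL1*, *LOXL2*, *LOXL3*, *LOXL4*, *PLOD1*, *PLOD2*, *P4HA1*, *P4HA2* and *P4HA3*. The choice was made with earlier results of these data known. All 10 symbols were among the 15924 listed in the deposited count table, and all 10 were among the 13188 genes with enough counts to be tested. The libraries came from WPMY-1 cells, a stromal line from human prostate immortalized with SV40 large T antigen, which has myofibroblast features. The lactate group (n = 3 libraries) received 24 mM lactate for 48 h, and the control group (n = 3 libraries) was the same line without added lactate. The labels give no gene edit, no batch and no pairing between the groups. The study's methods say that the lactate came as lactic acid, neutralized in part with NaOH to leave the medium slightly acidic, in HEPES-buffered medium with no bicarbonate and no CO2. The growth conditions in the labels do include CO2. The pH of the control medium was not given, so lactate and acidity cannot be told apart in these libraries. In a separate immunoblot, the study reports that acidic medium alone did not lower p62, the protein it follows. The 10 genes were not part of that result. One line cannot stand for other stromal cells.

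Collagen is hydroxylated in the endoplasmic reticulum before its chains wind into a triple helix. Prolyl 4-hydroxylases (catalytic alpha subunits P4HA1, P4HA2 and P4HA3, with P4HB as the shared beta subunit) modify prolines that hold the helix together, and lysyl hydroxylases (PLOD1, PLOD2 and PLOD3) modify lysines that later carry sugars and crosslinks. Both enzyme classes need iron, 2-oxoglutarate, ascorbate and oxygen. After secretion, the copper-dependent lysyl oxidases (LOX and LOXL1 to LOXL4) oxidize lysines and hydroxylysines of collagen and elastin, and the resulting aldehydes crosslink the fibers. Fibroblasts use these enzymes to stiffen the matrix in scars and tumor stroma. *LOX*, *PLOD2*, *P4HA1* and *P4HA2* are known targets of hypoxia-inducible factors in other cells.

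Promoter sequence was examined because several of these genes are known to respond to hypoxia and the study itself concerns AP-1. RefSeq (GRCh38.p14) gave a promoter for 8 of the 10 genes, namely all except *LOXL2* and *P4HA3*. The window ran from 250 bases before to 50 bases after the outermost annotated start. The letters ACGTG are 1 form of the core of a hypoxia response element and also part of the E-box CACGTG. They occurred on either strand in 3 of the 8 windows, against 21.6% of 27305 promoters. The form GCGTG was not searched, so a window without a match may still hold it. *LOX* held 4 matches, at positions -185, -116, -98 and -42 from the start. *PLOD2* held 2, at -200 and -146, and *P4HA1* held 1, at -86. The letters TGANTCA, an AP-1 core that reads the same on both strands, occurred in 0 of the 8 windows, against 7.72% of all promoters. A match describes letters in this window and no binding. The 250 bases before the start are shown for the 3 genes with a match and for *LOXL3*, which had none. *LOXL3* was picked for display after its values were known, and no link between matches and the response to lactate was tested. Capitals mark ACGTG, or CACGT where the match is on the other strand.
LOX (chr5:122078260-122078509, minus strand): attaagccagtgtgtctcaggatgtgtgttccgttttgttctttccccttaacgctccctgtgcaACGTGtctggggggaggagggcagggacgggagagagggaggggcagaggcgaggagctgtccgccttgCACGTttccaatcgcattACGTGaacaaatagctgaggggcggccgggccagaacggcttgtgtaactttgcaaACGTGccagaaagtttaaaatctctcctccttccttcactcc
PLOD2 (chr3:146161185-146161434, minus strand): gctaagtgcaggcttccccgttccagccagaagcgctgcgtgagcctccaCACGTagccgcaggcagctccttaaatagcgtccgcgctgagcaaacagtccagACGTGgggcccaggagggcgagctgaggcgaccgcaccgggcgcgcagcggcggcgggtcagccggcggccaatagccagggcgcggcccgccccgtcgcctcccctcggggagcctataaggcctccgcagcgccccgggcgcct
P4HA1 (chr10:73096867-73097116, minus strand): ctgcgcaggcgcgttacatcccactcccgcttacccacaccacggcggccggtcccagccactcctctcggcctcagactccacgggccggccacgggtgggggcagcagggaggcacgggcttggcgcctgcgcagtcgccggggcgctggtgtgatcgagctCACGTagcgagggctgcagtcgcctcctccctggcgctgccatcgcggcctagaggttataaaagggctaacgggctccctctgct
LOXL3 (chr2:74553943-74554192, minus strand): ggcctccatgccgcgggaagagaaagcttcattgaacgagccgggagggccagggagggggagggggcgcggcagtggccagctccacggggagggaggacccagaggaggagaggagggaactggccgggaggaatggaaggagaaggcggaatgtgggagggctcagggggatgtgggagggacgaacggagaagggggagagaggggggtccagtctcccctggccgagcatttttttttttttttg

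Before the genes are described, the libraries need a short account. The lactate libraries held 20392320 to 24055634 counts and the control libraries 20238653 to 46505372, control replicate 1 being the deepest. Levels in each library also followed the GC content and length of the transcript, and this trend accounted for 7.19% to 46.8% of the variance of the genes' deviations in lactate libraries and for 16.6% to 52.8% in control libraries. Lactate replicate 1 and control replicate 3 stood at opposite ends. In genes above the upper quartile of GC content (56.4%), the median deviation (log2 scale, from the mean of the 6 libraries) was 0.35 in lactate replicate 1 and -0.35 in control replicate 3. The first library of each group also stood apart from its group. In a chi-square comparison of counts over genes, lactate replicates 2 and 3 differed by 7.13 per degree of freedom and control replicates 2 and 3 by 10.4, whereas lactate replicate 1 differed from the other lactate libraries by 59.4 and 68.9 and control replicate 1 from the other controls by 66.2 and 117. The part of these differences in the results was not tested. The fold changes of the 10 genes were therefore also estimated with the GC and length trend removed from every library, which takes out any part of the response that runs with GC content or length as well, and without the first library of each group. That last fit keeps 2 libraries per group, and it leaves out the library farthest from the others of its group. Its spread is therefore small by selection, and its p-values are not taken as support. Tallies over the 14 alternative fits below still include it. Family shares were not recomputed with the trend removed. *SQSTM1*, the gene the study follows, encodes the autophagy receptor p62. It had 739, 551 and 574 CPM (reads of the gene scaled to library size, as TMM-adjusted CPM) in lactate libraries and 1526, 1131 and 1007 CPM in control libraries, with no overlap. Its log2 fold change (lactate over control, as throughout) was -0.97 (SE 0.192, edgeR adjusted p = 0.0191). Fibroblast markers were all tested (13 of 13, of which 1 rose and 2 fell) and summed to 5885 to 6155 CPM in lactate libraries and 5586 to 6494 CPM in controls. The defining markers of other cell types were near 0. *EPCAM* had 0.162 CPM in pooled lactate libraries and 0.165 CPM in pooled controls, *PECAM1* 0.177 CPM with lactate and 0.473 CPM in controls, and *PTPRC* 0.0737 CPM with lactate and 0.143 CPM in controls. The summed epithelial list (5 of 8 markers listed), carried by *KRT8* and *KRT18*, ran from 819.5 to 1206 CPM in lactate libraries and from 838 to 1275 CPM in controls. The endothelial list (5 of 5 listed, 1 tested) summed to 2.10 to 4.88 CPM in lactate libraries and 2.89 to 4.86 CPM in controls. The leukocyte list (6 of 6 listed, 2 tested) summed to 79.3 to 101 CPM in lactate libraries and 56.7 to 61.1 CPM in controls, nearly all of it *CD68*, which also marks lysosomes. *CD68* thus moved with the group (log2 fold change 0.67, edgeR adjusted p = 0.0280), and its part in the results was not tested.

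Of the 10 genes, 4 rose with lactate and 0 fell at an edgeR adjusted p under 0.05. The 4 were *LOX*, *LOXL3*, *LOXL2* and *PLOD1*, and 0 of the 10 fell at an unadjusted p under 0.05 or in DESeq2. Across all tested genes, 5.29% rose and 4.14% fell. The median log2 fold change of the 10 genes was 0.53, against -0.02 over all tested genes. Every lactate library lay above every control library for 7 of the 10 genes, against 17.3% of all genes tested, and for 0 of the 10 every lactate library lay below every control (15.3% of all genes). With the GC and length trend removed, 6 of the 10 rose and 0 fell, and 11% and 11.9% of all genes did so. Without the first library of each group, 6 of the 10 rose (the 4 above, *LOXL1* and *P4HA2*) and 0 fell, and 22.6% and 24.8% of all genes did so. In bulk RNA, more cells expressing a gene and more of its mRNA per cell cannot be told apart. Levels compared between genes are given per kilobase of the longest annotated transcript. On that scale (CPM per kb), *LOXL2* was the most abundant of the 10 genes in both groups and *P4HA3* the least.

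**Figure D1:**
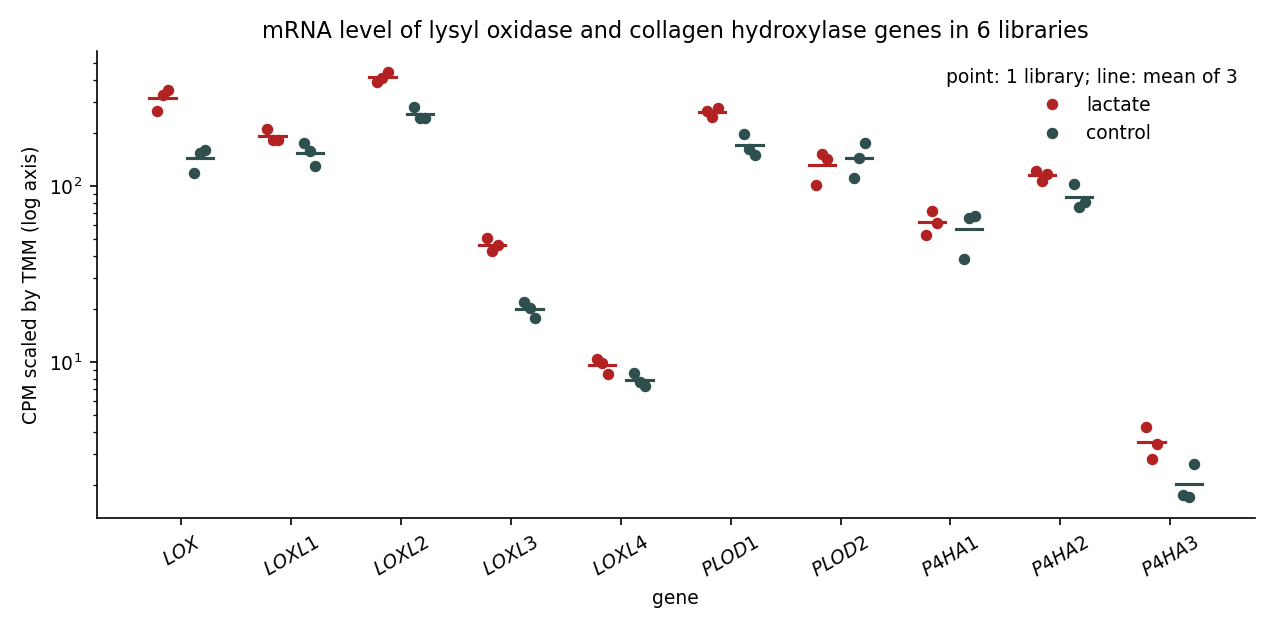
mRNA level (CPM scaled by TMM, log axis) of the 10 genes, with 1 point per library (lactate red, on the left of each pair; control dark grey) and a line at the mean of 3. *LOX*, *LOXL2*, *LOXL3* and *PLOD1* show the separated groups of the 4 genes that rose, while *PLOD2*, *P4HA1* and *LOXL4* overlap.

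*LOX* encodes the founding lysyl oxidase, which crosslinks fibrillar collagen and elastin (chr5:122063195-122078360, minus strand, GRCh38). *LOX* mRNA was at 268, 327 and 351 CPM in lactate libraries and at 118, 154 and 159 CPM in control libraries. The lowest lactate library was well above the highest control. The mean was 315 ± 43.1 CPM with lactate and 144 ± 22.5 CPM in controls (SD, n = 3 each), or 1.14 as log2 fold change (SE 0.171, edgeR adjusted p = 0.00717). On a linear scale it was 2.20-fold (95% interval 1.68 to 2.87). *LOX* had a larger log2 fold change than 97.0% of tested genes. It passed the test under 14 of 14 alternatives, including each library left out in turn (adjusted p up to 0.0468). Its transcript is AT-rich (39.6% GC), and with the trend removed the log2 fold change was 1.47 (edgeR adjusted p = 8.38e-05), higher than before.

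*LOXL3*, a lysyl oxidase with scavenger receptor domains (chr2:74532414-74555690, minus strand), had the largest fold change of the 10 genes on the counts as deposited, though that of *LOX* was larger with the trend removed. Its level was 50.5, 42.4 and 46.1 CPM with lactate, against 21.9, 20.2 and 17.8 CPM in controls. The groups were far apart, and libraries of a group lay close together. The means were 46.4 ± 4.03 CPM with lactate and 19.98 ± 2.07 CPM in controls (SD, n = 3 each), and the log2 fold change was 1.21 (SE 0.160, edgeR adjusted p = 0.00462). This was 2.32-fold (95% interval 1.81 to 2.98). *LOXL3* also passed under 14 of 14 alternatives, and its log2 fold change was 1.00 with the trend removed (edgeR adjusted p = 0.000301). *HTRA2*, on the opposite strand, shares 14.3% of the exonic bases of *LOXL3*, and *DOK1* shares 4.95%. Whether counting used strand was not given, so reads there are uncertain. On the log2 scale the value of *HTRA2* itself was 0.37 (SE 0.205, edgeR adjusted p = 0.267) and that of *DOK1* 0.50 (SE 0.238, edgeR adjusted p = 0.205), and neither passed. *HTRA2* was at 88.1 CPM with lactate and 68.0 CPM in controls, and *DOK1* at 61.7 CPM with lactate and 43.5 CPM in controls. Both thus stood above *LOXL3*, and the part of shared reads in its fold change was not tested.

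*LOXL2*, which also carries scavenger receptor domains and crosslinks basement membrane collagen IV, was the most abundant family member. It was at 389, 407 and 443 CPM with lactate and at 278, 244 and 244 CPM in controls. Again the groups did not overlap. The log2 change was 0.69 (SE 0.133, edgeR adjusted p = 0.0179), or 1.62-fold (95% interval 1.32 to 1.99). The call was lost when control replicate 2 (adjusted p = 0.122), control replicate 3 (0.0801), lactate replicate 2 (0.0562) or lactate replicate 3 (0.111) was left out of the edgeR fit, with log2 fold changes of 0.64 to 0.76 over all 6 omissions. With the trend removed *LOXL2* still rose, by a smaller 0.45 (edgeR adjusted p = 0.0161).

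The other members of the oxidase family did not pass. *LOXL1*, which is known for its role in elastic fibers, had 211, 182 and 183 CPM in lactate libraries, against 175, 158 and 129.6 CPM in controls. Each lactate library was above each control by a small margin, and the log2 fold change of 0.32 (SE 0.155) had an edgeR adjusted p of 0.217. *LOXL1* has the most GC-rich transcript of the 10 (67.6% GC), and its direction turned with the trend removed, to -0.13 (edgeR adjusted p = 0.360). It passed under 1 of 14 alternatives, the omission of the first library of each group (edgeR adjusted p = 0.00318). *LOXL1-AS1*, antisense to it over 9.21% of its exonic bases, had -0.07 on the log2 scale (SE 0.145, edgeR adjusted p = 0.779). *LOXL4*, a low-abundance relative of *LOXL2* and *LOXL3*, had 10.4, 9.84 and 8.56 CPM with lactate and 8.65, 7.67 and 7.32 CPM in controls. Its groups overlapped, and the 95% interval of its log2 fold change (0.28) ran from -0.13 to 0.69 (edgeR adjusted p = 0.345). It was 0.047 with the trend removed.

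The makeup of the oxidase family was then computed for each library, as the share of each gene in the summed CPM per kb, which does not depend on library scaling. The *LOX* share was 20.5%, 24.7% and 25.1% in lactate libraries and 13.3%, 18.5% and 20.3% in control libraries. The *LOXL1* share was 29.7%, 25.3% and 23.9% with lactate, against 36.4%, 34.7% and 30.3% in controls. Thus *LOX* held more of the family and *LOXL1* less in every lactate library, while *LOXL2* held 44.2% ± 1.22 with lactate and 44.0% ± 1.78 in controls (SD, n = 3 each). *LOXL3* took 5.04% ± 0.528 with lactate and 3.49% ± 0.156 in controls, and *LOXL4* 1.00% ± 0.133 with lactate and 1.32% ± 0.0433 in controls. The summed oxidase level was 263 ± 10.2 CPM per kb with lactate and 163 ± 9.83 CPM per kb in controls, without overlap. Over the 3 families, 11 shares were tested by a two-sided exact permutation test of the libraries, whose smallest p with 3 against 3 is 0.1. The groups did not overlap for 5 shares (*LOX*, *LOXL1*, *LOXL3*, *LOXL4* and *PLOD1*), each with an exact permutation p = 0.1, or 0.22 after Benjamini-Hochberg adjustment over the 11, so 0 shares could pass.

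**Figure D2:**
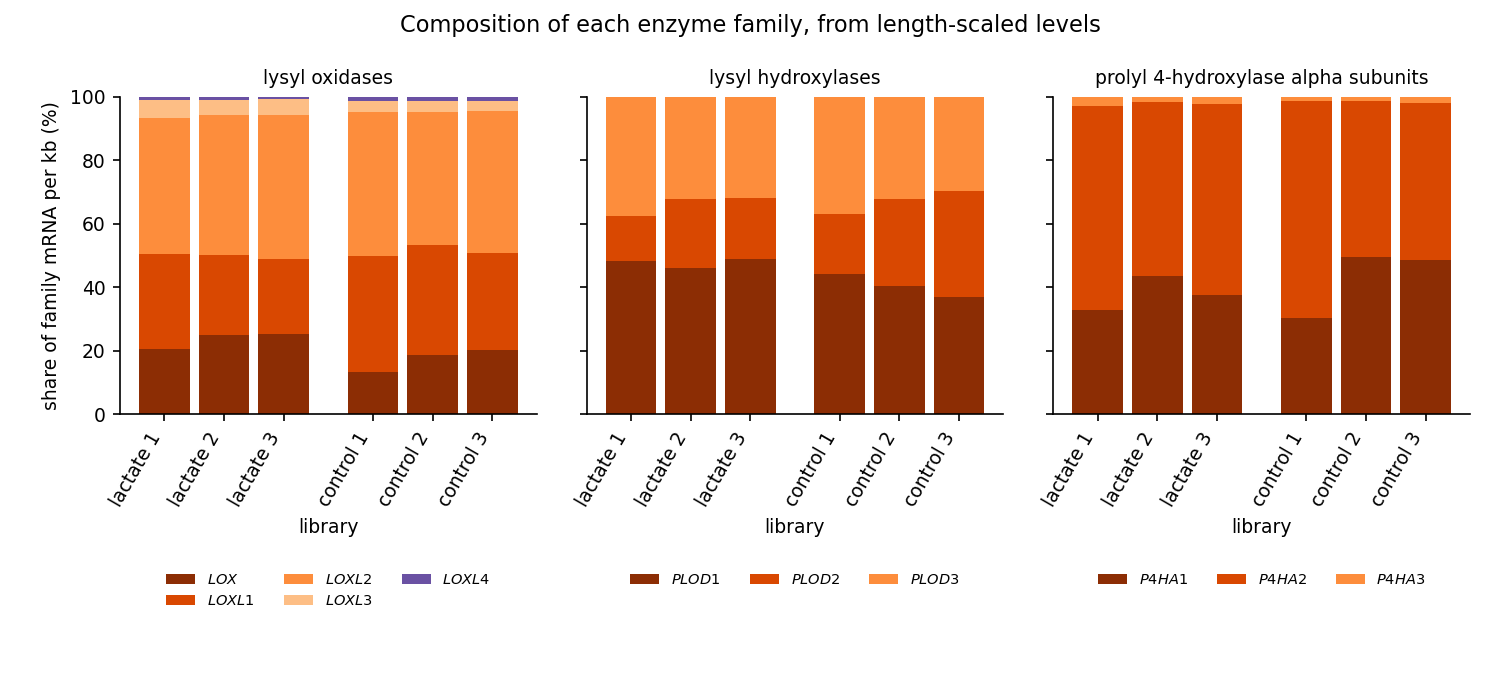
Share (%) of each gene in the length-scaled mRNA (CPM per kb) of its enzyme family, 1 bar per library with lactate libraries on the left. *LOX* makes up 20.5% to 25.1% of oxidase mRNA in lactate libraries and 13.3% to 20.3% in controls. Among controls the *P4HA2* and *P4HA1* shares vary most, with SDs of 11.0 and 10.9 percentage points.

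Among the lysyl hydroxylases, *PLOD1* rose and *PLOD2* did not. *PLOD1* hydroxylates lysines of the triple helix (chr1:11934205-11975538, plus strand). It was at 265, 247 and 278 CPM with lactate and at 197, 162 and 150.3 CPM in controls. The groups did not overlap, and the log2 fold change was 0.63 (SE 0.148, edgeR adjusted p = 0.0325), or 1.55-fold (95% interval 1.23 to 1.95). This call was the least stable of the 4. It was lost without lactate replicate 1 (edgeR adjusted p = 0.0572), 2 (0.0706) or 3 (0.154) and without control replicate 2 (0.173) or 3 (0.132), and it held without control replicate 1 (0.0102). With the trend removed *PLOD1* rose by 0.40 (edgeR adjusted p = 0.0153).

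*PLOD2* hydroxylates the telopeptide lysines that give stable, fibrosis-type crosslinks. Its level was 101, 153 and 142 CPM in lactate libraries and 111, 145 and 176 CPM in control libraries. Both groups covered much the same range, and both had their lowest value in replicate 1. The log2 fold change of -0.12 had a 95% interval from -0.60 to 0.36 (edgeR adjusted p = 0.736). *PLOD2* has the most AT-rich transcript of the 10 genes (34.4% GC), and with the trend removed its log2 fold change was 0.25 (edgeR adjusted p = 0.107). *PLOD3*, the remaining lysyl hydroxylase, which also adds sugars to hydroxylysine, is not one of the 10. It had 205, 171 and 179.9 CPM with lactate and 165, 129 and 120.2 CPM in controls. These groups did not overlap either, but the log2 fold change of 0.42 (SE 0.162) did not pass (edgeR adjusted p = 0.130), and with the trend removed it was 0.12.

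As shares of the lysyl hydroxylase family, *PLOD1* took 47.8% ± 1.51 with lactate and 40.4% ± 3.49 in controls, and *PLOD2* took 18.4% ± 3.89 with lactate and 26.5% ± 7.19 in controls (SD, n = 3 each). The *PLOD2* shares overlapped (exact permutation p = 0.3), and their difference of -8.17 percentage points was -12.0 without control replicate 1 and -4.84 without control replicate 3. The summed level of the 3 genes was 188 ± 5.47 CPM per kb in lactate libraries and 143 ± 8.59 CPM per kb in controls.

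Of the 3 prolyl 4-hydroxylase alpha subunits, 0 passed the edgeR test on the counts as deposited or DESeq2, and 2 (*P4HA2* and *P4HA3*) had an unadjusted edgeR p under 0.05 (0.0246 and 0.0209). *P4HA1*, the main catalytic subunit in most cells (chr10:73007217-73096974, minus strand), had 52.7, 72.2 and 61.5 CPM with lactate and 38.3, 65.5 and 67.3 CPM in controls. The values interleaved, control replicate 1 being the lowest. The log2 fold change was 0.13 (95% interval -0.39 to 0.64, edgeR adjusted p = 0.749). Its transcript is also AT-rich (40.8% GC). With the trend removed the log2 fold change was 0.47 and passed (edgeR adjusted p = 0.0212), whereas without control replicate 1 and with the trend kept it was -0.10 (edgeR adjusted p = 0.660).

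*P4HA2*, the other widely expressed subunit (chr5:132191838-132295315, minus strand), had 122, 107 and 117 CPM with lactate and 102, 76.2 and 80.6 CPM in controls. The lowest lactate library lay just above the highest control. Its log2 fold change of 0.42 (SE 0.156) had an edgeR adjusted p of 0.121. It passed under 3 of 14 alternatives, namely without control replicate 1 (edgeR adjusted p = 0.0219), without the first library of each group (log2 fold change 0.51, edgeR adjusted p = 2.85e-05) and with the trend removed (0.39, edgeR adjusted p = 0.0341). *P4HA3* encodes a minor subunit and was the rarest of the 10, with 82, 68 and 84 counts in lactate libraries and 77, 36 and 67 counts in control libraries. Scaled for depth these were 4.31, 2.81 and 3.44 CPM with lactate and 1.77, 1.71 and 2.64 CPM in controls, again without overlap. At this depth its log2 fold change of 0.79 had a wide 95% interval, 0.15 to 1.42 (edgeR adjusted p = 0.110), and it was 0.65 with the trend removed and 0.51 without the first library of each group. *PPME1*, opposite over 4.14% of its exonic bases, was at 113 CPM with lactate and 91.8 CPM in controls, far above *P4HA3*.

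The summed alpha subunits stood at 57.6 ± 0.981 CPM per kb with lactate and 46.6 ± 2.05 CPM per kb in controls, a small difference without overlap (exact permutation p = 0.1, the smallest possible). *P4HA2* made up 59.8% ± 4.82 of it with lactate and 55.6% ± 11.0 in controls, and *P4HA1* 37.8% ± 5.35 with lactate and 42.8% ± 10.9 in controls, so these shares overlapped. The differences in share (lactate minus control, percentage points) rested on single libraries. That of *P4HA2* was 4.26, but 10.6 without control replicate 1 and 0.99 without control replicate 2, and that of *P4HA1* was -4.93, but -11.2 and -1.53 in these omissions. *P4HB*, the beta subunit, which is also protein disulfide isomerase, was abundant, at 1223, 1049.7 and 1143 CPM with lactate and 1181, 921 and 873 CPM in controls. Its groups overlapped and the log2 fold change of 0.20 did not pass (edgeR adjusted p = 0.425). With the trend removed it was -0.034.

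**Figure D3:**
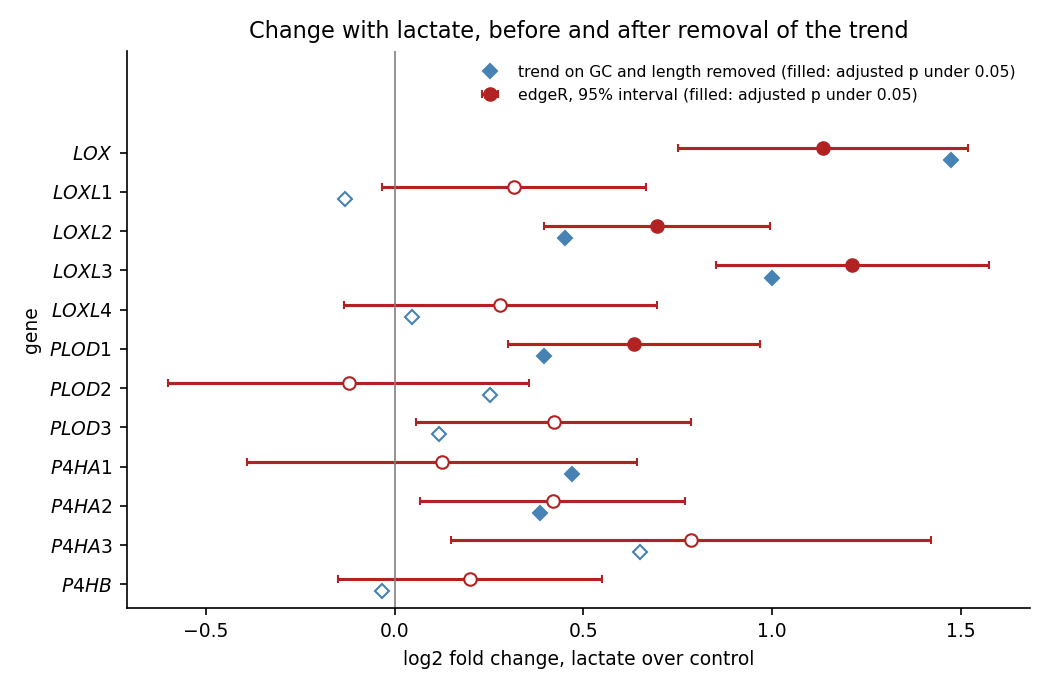
Log2 fold change (lactate over control) of the 10 genes, *PLOD3* and *P4HB*. Red circles with 95% intervals are the edgeR fit on the counts, blue diamonds the fit with the GC and length trend removed, and filled symbols have an adjusted p under 0.05. *LOX*, *LOXL2*, *LOXL3* and *PLOD1* are filled in both, and *P4HA1* and *P4HA2* with the trend removed.

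Ordered by CPM per kb, the lactate libraries ran *LOXL2* (116 ± 7.64), *PLOD1* (89.6 ± 5.28), *LOXL1* (69.0 ± 6.02), *LOX* (61.8 ± 8.44), *P4HA2* (34.5 ± 2.25), *PLOD2* (34.4 ± 7.08), *P4HA1* (21.8 ± 3.43), *LOXL3* (13.2 ± 1.15), *LOXL4* (2.62 ± 0.254) and *P4HA3* (1.34 ± 0.287). In the control libraries the order was *LOXL2* (71.9 ± 5.66), *PLOD1* (57.8 ± 8.29), *LOXL1* (55.4 ± 8.26), *PLOD2* (37.5 ± 8.51), *LOX* (28.1 ± 4.41), *P4HA2* (25.8 ± 4.14), *P4HA1* (20.1 ± 5.71), *LOXL3* (5.70 ± 0.590), *LOXL4* (2.16 ± 0.188) and *P4HA3* (0.776 ± 0.198). Within their SD, *LOX* stood level with *LOXL1* in lactate libraries but below it in controls, and *P4HA2* and *PLOD2* were level with lactate. In controls *PLOD1* and *LOXL1* were level. So were *PLOD2* and *LOX*, *LOX* and *P4HA2*, and *P4HA2* and *P4HA1*. The longest transcript sets this scale and may not be the one expressed. The labels describe a whole-transcript kit, and the RNA-seq section of the study's methods one that reads 3′ ends, for which division by length would not apply. Without that division *LOX* (315 ± 43.1 CPM) stood above *PLOD1* (264 ± 15.5 CPM) in lactate libraries, so the order depends on that division.

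How far the GC and length trend reaches differs by gene. The trend alone gave a difference between the groups (lactate minus control, log2) of -0.34 at *LOX*, -0.37 at *PLOD2* and -0.32 at *P4HA1*, the AT-rich transcripts. It gave 0.46 at *LOXL1*, 0.25 at *LOXL2* and at *PLOD1*, 0.24 at *LOXL4* and 0.22 at *LOXL3*, all GC-rich. At *P4HA2* it was 0.04 and at *P4HA3* 0.13. Taking it out thus raised the values of the first 3 genes and lowered those of the others.

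**Figure D4:**
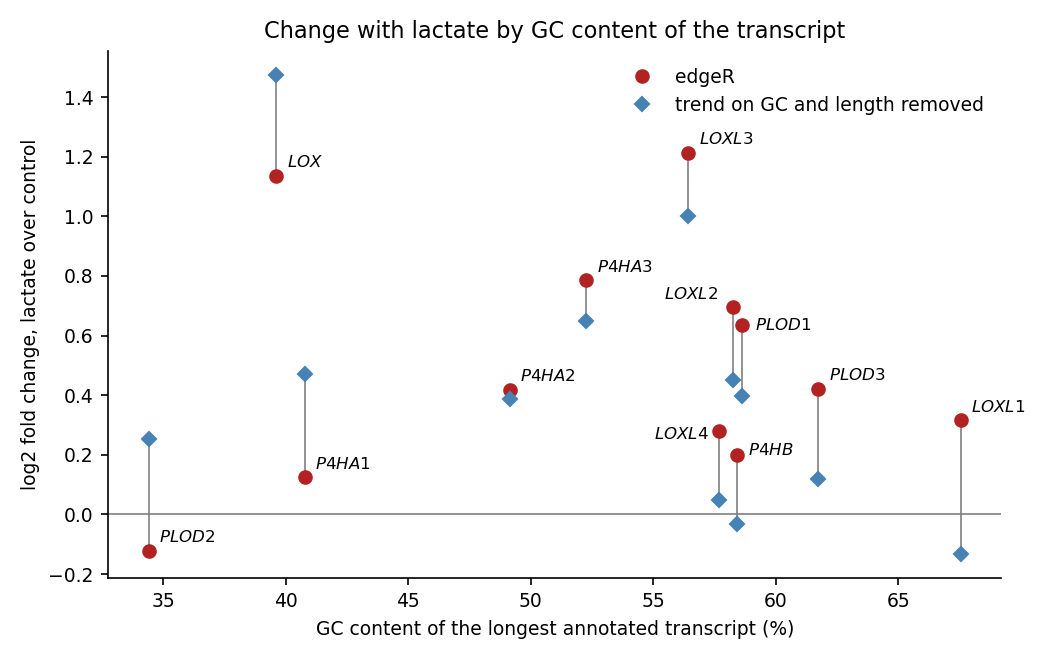
Log2 fold change (lactate over control) of the 10 genes, *PLOD3* and *P4HB* against the GC content (%) of the longest annotated transcript, from edgeR on the counts (red circles) and after removal of the trend (blue diamonds), joined for each gene. *LOX* at 39.6% GC lies at 1.14 and 1.47, and *LOXL1* at 67.6% GC at 0.32 and -0.13.

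The wider collagen pathway was read from 6 lists holding 55 tested genes. In these, 8 genes rose and 3 fell, against 5.29% and 4.14% of all tested genes. Of 17 other hydroxylases and folding factors, 3 rose and 0 fell in edgeR (median log2 fold change 0.31), and 0 fell at an unadjusted p under 0.05 or in DESeq2. The list had 7 rises and 2 falls without control replicate 1, where 1480 of all 13387 genes rose and 1612 fell. It had 10 rises and 2 falls (*FKBP14* and *TMEM38B*) without the first library of each group (22.6% and 24.8% of all genes). With the trend removed it had 7 rises and 1 fall (*CREB3L1*, edgeR adjusted p = 0.0123), against 11% and 11.9% of all genes. *KDELR3*, a receptor that returns chaperones to the endoplasmic reticulum, was at 68.3, 69.7 and 77.5 CPM with lactate and 35.5, 40.7 and 41.2 CPM in controls (log2 fold change 0.88, edgeR adjusted p = 0.00948). *LEPREL4* (now P3H4, a partner of lysyl hydroxylase 1) changed by 0.80 (edgeR adjusted p = 0.0439), and *FKBP10*, a prolyl isomerase that acts with lysyl hydroxylase 2, by 0.74 (edgeR adjusted p = 0.0280). The groups did not overlap for any of these 3 genes. The *KDELR3* call was lost without control replicate 2 or lactate replicate 3 (adjusted p up to 0.0692), and those of *LEPREL4* and *FKBP10* in every omission except that of control replicate 1 (up to 0.190 and 0.154). *LEPREL4* rose by 0.51 and *FKBP10* by 0.49 with the trend removed.

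Of 7 tested genes of procollagen trimming, which include proteinases and enhancers of their action, 1 rose and 0 fell in edgeR (median -0.36). At an unadjusted p under 0.05 the list had 1 fall, and it had 1 in DESeq2, where 1092 of all 13188 genes fell. Removal of the trend gave 1 rise and 2 falls, as did omission of the first library of each group (*BMP1* and *PCOLCE2*). Of all genes, 11% rose and 11.9% fell in the former setting, and 22.6% and 24.8% in the latter. *ADAMTS2*, a procollagen N-proteinase, was at 68.0, 67.1 and 68.9 CPM with lactate and 29.6, 23.8 and 25.9 CPM in controls (log2 fold change 1.36, SE 0.149, edgeR adjusted p = 0.00227), and passed under 14 of 14 alternatives. The N-proteinases *ADAMTS3* (-0.73, edgeR adjusted p = 0.187) and *ADAMTS14* (-0.10, edgeR adjusted p = 0.873) did not pass. *BMP1*, the C-proteinase, was at -0.41 (edgeR adjusted p = 0.0956), and at -0.71 with the trend removed (edgeR adjusted p = 0.00262).

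Of 12 listed substrates of the oxidases, 9 were tested, and *COL2A1*, *COL11A1* and elastin (*ELN*) were not. The tested genes moved both ways, as 2 rose and 2 fell (median 0.13). The most abundant, *COL1A1* and *COL1A2*, did not pass. *COL1A1* was at 1460 ± 71.6 CPM with lactate and 1410.5 ± 206 CPM in controls (log2 fold change 0.05, edgeR adjusted p = 0.849). *COL1A2* was at 564 ± 51.1 CPM with lactate and 634 ± 74.0 CPM in controls (-0.17, edgeR adjusted p = 0.467). The basement membrane chains *COL4A2* and *COL4A1* rose, with log2 fold changes of 1.01 (edgeR adjusted p = 0.00644) and 0.77 (edgeR adjusted p = 0.0260). *COL4A2* was at 325, 392 and 427 CPM with lactate and 201, 175 and 191 CPM in controls. The fibrillar *COL3A1* fell, to 62.4, 85.6 and 65.4 CPM with lactate, against 169, 152 and 173 CPM in controls (log2 fold change -1.21, edgeR adjusted p = 0.00492). *COL5A3*, a rare chain, fell by 1.48 on the log2 scale (edgeR adjusted p = 0.00947). The *COL3A1* call held under 14 of 14 alternatives. That of *COL4A2* was lost without control replicate 2 (adjusted p = 0.0579), that of *COL4A1* without control replicate 2 or lactate replicate 2 or 3 (up to 0.145), and that of *COL5A3* without control replicate 2 or lactate replicate 3 (up to 0.0619).

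Of 8 crosslinking partners in the matrix, 1 rose and 1 fell (median 0.13). *FMOD*, fibromodulin, which binds collagen and steers lysyl oxidase, changed by 0.70 (edgeR adjusted p = 0.0499), and *POSTN*, periostin, by -0.83 (edgeR adjusted p = 0.0465). Both calls were lost in every omission of a library except that of control replicate 1 (adjusted p up to 0.233 and 0.171). In all, *FMOD* passed under 6 of 14 alternatives and *POSTN* under 7, and limma-voom and total library size called 0 genes of this list in either direction. DESeq2 called 2 higher and 2 lower, and 1155 and 1092 of all 13188 genes. Removal of the trend gave 2 and 1, against 11% and 11.9% of all genes. Omission of the first library of each group gave 4 and 3, against 22.6% and 24.8% of all genes. *FN1*, the most abundant partner, was at 641 ± 216 CPM with lactate and 355 ± 73.8 CPM in controls (log2 fold change 0.85, edgeR adjusted p = 0.0728). With the trend removed *FN1* was at 1.09 (edgeR adjusted p = 0.000481). *POSTN* was at -0.49 with the trend removed, still past the threshold. Of 6 genes of copper supply, 1 rose and 0 fell, with 0 falling at an unadjusted p under 0.05 or in DESeq2 (median 0.25). Without the first library of each group, 3 rose and 2 fell (*ATP7A* and *COX17*), and 22.6% and 24.8% of all genes did so. The 1 gene that rose with every library kept was *ATP7B*, a copper pump of the secretory pathway. It was at 3.26, 4.43 and 4.83 CPM with lactate and 1.86, 1.14 and 1.42 CPM in controls (log2 fold change 1.48, edgeR adjusted p = 0.0175). That call was lost without control replicate 2 or 3 or lactate replicate 2 or 3 (adjusted p up to 0.0984).

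Genes of oxygen sensing, with the ascorbate transporter *SLC23A2*, were the last list, which held no gene of iron sensing. Of 10 genes named for it, *SLC23A1* was not in the count table and *EGLN2* was not tested. Of 8 tested, 0 rose and 0 fell in edgeR (median -0.02), and 0 passed an unadjusted p under 0.05. DESeq2 and limma-voom also called 0, whereas 2 rose (*EPAS1* and *P4HTM*) and 2 fell (*EGLN1* and *HIF1A*) without the first library of each group. In that setting 22.6% of all genes rose and 24.8% fell, so these 4 calls are near the share over all genes. The most abundant were *EPAS1*, which encodes HIF-2 alpha, with 184 ± 25.7 CPM in lactate libraries and 155 ± 7.36 CPM in controls (log2 fold change 0.24, edgeR adjusted p = 0.309), and *VHL*, with 136 ± 14.1 CPM with lactate and 135 ± 24.7 CPM in controls (0.01, edgeR adjusted p = 0.978, SD over n = 3 each).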

How the data were processed

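The values are raw counts of reads for each gene symbol, which the authors obtained with a BaseSpace alignment app and deposited as whole numbers. STAR, DESeq2 and the build hg38 are named in the submitters' processing notes. Their versions and the strand setting are not given in the sources used here. Per the labels, poly(A) RNA was made into directional libraries and sequenced single-end on a NextSeq 500. The RNA-seq section of the study's methods describes a kit for 3′ ends instead, and the labels were followed. Groups came from the treatment label. Replicate numbers follow sample order and pair nothing. The study calls its samples biological replicates, and no label names the cultures, so p-values measure the spread between these samples. Intervals cover that spread and no other error.

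The two-sided quasi-likelihood test of edgeR 4.0.16 (R 4.3.3) was run on TMM-scaled counts of genes kept by filterByExpr. P-values were adjusted by Benjamini-Hochberg over 13188 genes, and 0.05 was the threshold. A standard error is the size of the log2 fold change over the root of its F statistic. Biological variation between replicates had a common coefficient of 20.2%. Alternatives were RLE scaling, total library size, no filter, a mean of at least 1 CPM, DESeq2 1.42.0, limma-voom (limma 3.58.1), each library left out, the first library of each group left out, and removal of a spline trend (5 degrees of freedom) on GC content and length in each library. GENCODE 29 on GRCh38 gave coordinates, GC content and length for 95.9% of symbols. No library was a copy of another, since even the closest pair (lactate replicates 2 and 3) gave 7.13 for chi-square over its degrees of freedom. The 10 genes and the lists were chosen with earlier results of these data known. Named genes were the 10, *PLOD3*, *P4HB* and *SQSTM1*, and in each other list up to 4 called genes with the largest change or, where none passed, the 2 with the highest mean CPM. *HTRA2*, *DOK1*, *LOXL1-AS1* and *PPME1* were named for overlapping exons, marker genes for their lists, and genes called under an alternative alone for their counts, after values were seen. *COL1A1*, *COL1A2* and *FN1* were added as abundant genes of their lists, and *ADAMTS3*, *ADAMTS14* and *BMP1* beside *ADAMTS2*, also after values were seen. *SLC23A2* and genes not tested were named to describe their lists.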

Additional observations from a re-analysis of the deposited data

How the results depend on the processing

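*LOX* and *LOXL3* kept their direction and their call under 14 of 14 alternatives, *LOXL2* kept its call under 10 and *PLOD1* under 9. Each tally counts the fit without the first library of each group, whose p-values are not taken as support. Of the 10 genes, 2 to 5 rose when 1 library was left out. These omissions also moved the counts over all tested genes (698 higher and 546 lower with every library) to between 92 and 1480 higher and between 79 and 1612 lower, and the counts in the 6 other lists (8 higher and 3 lower) to 1 to 13 and 1 to 5. The lowest counts followed the omission of control replicate 2 or lactate replicate 3 and the highest that of control replicate 1. DESeq2 called 1155 genes higher and 1092 lower, with 12 and 5 in the lists. Without the first library of each group, edgeR called 3002 and 3293 genes, with 23 and 13 in the lists. With the GC and length trend removed it called 1415 and 1526, with 13 and 6 in the lists. The causes were not tested.

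With the trend removed, *LOXL1* (-0.13), *PLOD2* (0.25) and *P4HB* (-0.034) changed sign on the log2 scale. When 1 library was left out, *PLOD2* ranged from -0.28 to 0.047, above 0 without control replicate 3 or lactate replicate 1, and *P4HA1* from -0.10 to 0.26, below 0 without control replicate 1. The *LOXL2* share difference was 0.19 percentage points, -1.62 without length scaling, and -0.82 to 0.85 with 1 library left out. That of *PLOD3* was 0.78, and -1.05 to 2.81 with 1 library left out. The same omissions put the share difference of *PLOD2* between -12.0 and -4.84, that of *P4HA1* between -11.2 and -1.53, that of *P4HA2* between 0.99 and 10.6 and that of *P4HA3* between 0.39 and 0.92. No paired analysis was possible because the replicate numbers follow sample order only. Counts limit *P4HA3* most, with 36 to 84 in a library.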
